A study of Mus musculus with 2 samples.

Results

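Galectins are small proteins that bind galactose-containing sugars, most of all the N-acetyllactosamine units at the ends of N- and O-glycans. They are made in the cytosol, leave the cell without a signal peptide, and crosslink glycoproteins at the cell surface and in the matrix, while inside the cell they gather on lysosomes and endosomes whose membranes have broken. Sialic acid capping changes which galectins can bind a glycan, which ties the family to Gne, the enzyme that starts sialic acid synthesis. In muscle, galectin-1 is known as an abundant protein of myoblasts and galectin-3 as a protein of macrophages and of repairing tissue.

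The genes described here are the galectins Lgals1, Lgals2, Lgals3, Lgals4, Lgals7, Lgals8 and Lgals9 together with Lgals3bp, which encodes a secreted glycoprotein that binds galectin-3. They were found by gene symbol, and all 8 were present among 21829 genes. The study asked how loss of Gne alters muscle cells, and its RNA sequencing of C2C12, a mouse myoblast line, comprised 1 WT library and 1 library labelled GNE KO. Both came from cells cultured in medium with serum, and the KO line was derived from a single cell after CRISPR–Cas9 editing of Gne, so that it represents 1 clone. With 1 library per genotype there is no replicate error, no test was possible, and an effect of Gne and a difference between clones cannot be told apart.

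Values are FPKM, fragments scaled by transcript length and sequencing depth, a unit that was inferred because the deposited tables do not name one. Column totals were 568410.0 in WT and 574144 in the KO-labelled library, and the number of fragments is not given. The Gne transcript itself had 6.67 FPKM in WT and 7.34 FPKM in the KO-labelled library, so the amount of Gne RNA does not show which library carries the edit. Of 8 myoblast markers, 6 had a mean of at least 1 FPKM, of which 4 were more than 2-fold lower and 1 more than 2-fold higher in the KO-labelled library, and the summed level of all 8 was 246 and 54.1 FPKM. Myod1, the defining regulator of myoblasts, was 1 of the 4 lower markers and was listed at 0 in that library. The myoblast markers did not all fall, since the highest log2 fold change among the 6 was 1.07. Of 7 fibroblast markers, 4 had a mean of at least 1 FPKM, and 2 of these were more than 2-fold higher, Col1a1, at 9.66 and 273 FPKM, and Postn, at 0.44 and 33.9 FPKM. Pdgfra had 10.8 and 12.3 FPKM and Pdgfrb 54.5 and 80.2 FPKM, while Thy1 and Lum were listed at 0 in both libraries. The summed level of the 7 was 75.7 and 401 FPKM, a difference that lay mostly in Col1a1. In RNA from whole cultures, fewer cells of a type and less RNA per cell cannot be told apart, and the part of these shifts in the galectin values was not tested.

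Promoter sequences are shown for Lgals3bp and Lgals9, which are known as interferon-responsive genes, and for Lgals2, which had the largest fold difference of any galectin. Each is the 250 bases before the transcription start of the RefSeq gene, on the GRCm38.p6 build and read on the minus strand, on which all 3 genes lie. They lie at chr11:118401960-118402209 for Lgals3bp, chr11:78984925-78985174 for Lgals9 and chr15:78855530-78855779 for Lgals2. Capitals mark matches to the interferon regulatory factor core AANNGAAA, on either strand.
Lgals3bp: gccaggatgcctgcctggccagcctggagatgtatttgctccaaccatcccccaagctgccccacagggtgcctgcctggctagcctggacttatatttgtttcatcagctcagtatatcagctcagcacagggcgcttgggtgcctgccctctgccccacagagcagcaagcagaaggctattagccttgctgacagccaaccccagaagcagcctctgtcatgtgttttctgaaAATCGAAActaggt
Lgals9: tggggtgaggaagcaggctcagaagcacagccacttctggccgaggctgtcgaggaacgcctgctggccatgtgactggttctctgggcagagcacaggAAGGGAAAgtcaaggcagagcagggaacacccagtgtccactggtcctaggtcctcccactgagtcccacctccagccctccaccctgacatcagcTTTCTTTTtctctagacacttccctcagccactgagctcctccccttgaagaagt
Lgals2: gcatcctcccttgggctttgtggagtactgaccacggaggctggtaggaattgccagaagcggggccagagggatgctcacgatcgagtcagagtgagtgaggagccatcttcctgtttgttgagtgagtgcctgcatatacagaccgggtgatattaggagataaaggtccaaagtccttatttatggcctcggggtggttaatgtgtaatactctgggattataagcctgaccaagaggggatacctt

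The Lgals3bp stretch held 1 match to AANNGAAA, which began 14 bases before the start. The Lgals9 stretch held 2 matches, 1 on each strand. No match was found in the Lgals2 stretch. Of 32851 RefSeq promoters of the same length, 21.3% held AANNGAAA, so that a match is common. This core was chosen after the Lgals3bp sequence had been seen. Of the other motifs searched on both strands, the MyoD-type E-box CAGCTG (13% of promoters), the GC box GGGCGG (32.7%), TATAAA (12.4%) and CCAAT (33.8%), none matched in these 3 stretches. Among the other members, CAGCTG was found 24 bases before the start of Lgals4 and 15 bases before that of Lgals7. GGGCGG was found in the promoters of Lgals3 and Lgals7, and CCAAT in those of Lgals3, Lgals4 and Lgals8. AANNGAAA and TATAAA were found in none of these. The promoters of 7 of the 8 members were matched in the table.

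C2C12 cells expressed 2 galectins at high level and 2 at moderate level, and the order of the galectins differed between the libraries only for Lgals8 and Lgals9. Lgals1 had 4918 FPKM in WT, where it ranked 4 among all genes, and 3660.15 FPKM in the KO-labelled library, where it ranked 9. Lgals3, the chimera-type galectin that joins a sugar-binding domain to a flexible tail, had 886 and 588 FPKM, at ranks 93 and 138. Lgals1 and Lgals3 together made up 98.8% of the summed level of the 8 genes in WT and 97.7% in the KO-labelled library. The tandem-repeat galectins Lgals8 and Lgals9 followed with values between 22.9 and 27.5 FPKM. Lgals3bp and Lgals2 were lower than these in WT, and they differed most between the libraries. Lgals4, a galectin of gut epithelium, was close to the bottom of the range at 0.246 and 0.115 FPKM. Lgals7, a galectin of keratinocytes, was listed at 0 in both libraries. Of 8 epithelial genes, Epcam, Krt18 and Vil1 were also listed at 0 in both, and only Krt14, at 18.8 and 6.20 FPKM, had a mean of at least 1 FPKM. None of 4 endothelial genes did.

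**Figure D1:**
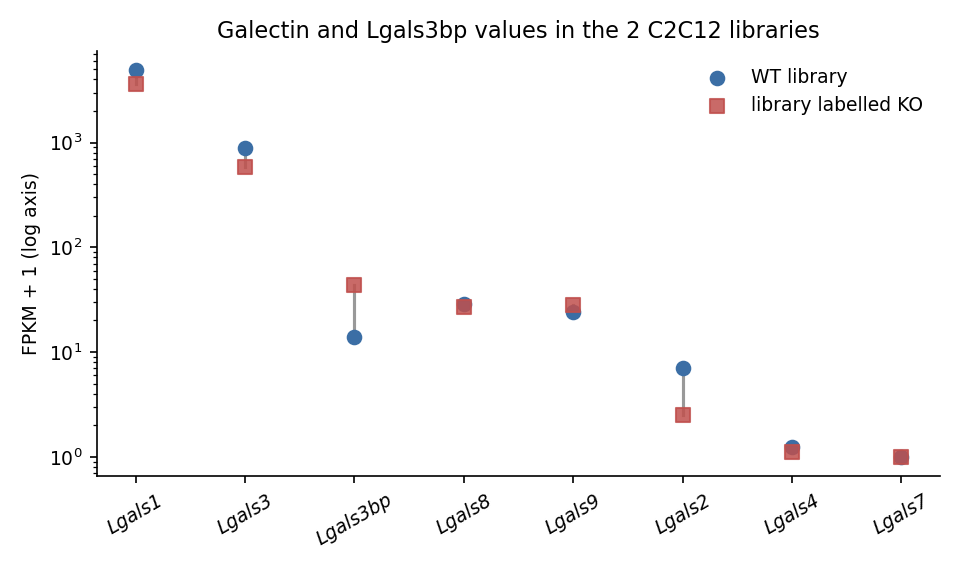
FPKM + 1 on a log axis for each of the 8 genes, with circles for the WT library and squares for the KO-labelled library, each a single library without error. Lgals1 and Lgals3 lie far above the rest, Lgals3bp is higher in the KO-labelled library, and Lgals2 is lower there.

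For KO against WT, 6 of the 8 genes reached a mean of 1 FPKM or more, and these were compared by the log2 fold change of FPKM + 1. Of the 6, 1 was more than 2-fold higher in the KO-labelled library, Lgals3bp, and 1 was more than 2-fold lower, Lgals2. Among all 10542 genes past the same limit, 2.84% were higher by more than 2-fold and 3.43% were lower by more than 2-fold. The median over the 6 genes was -0.25, with 2 genes above 0 and 4 below, against a median of 0.0061 over all genes. Opposite differences within so small a family make this median a poor summary, and the genes are given one by one.

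Lgals3bp encodes the galectin-3-binding protein, a heavily glycosylated member of the scavenger receptor cysteine-rich family that is secreted and forms large rings. Its value was 13.0 FPKM in WT and 43.0 FPKM in the KO-labelled library, a ratio of 3.32 and a log2 fold change of 1.66. Only 111 of the 10542 genes had a higher log2 fold change. Lgals3bp ranked 5 among the 8 genes in WT and 3 in the KO-labelled library, where it stood above Lgals8 and Lgals9. Genes of like level differed little between the libraries. Of the 200 genes nearest to Lgals3bp in mean FPKM, 1 was more than 2-fold higher (0.5%), and the central range of their log2 fold changes, from the 5th to the 95th percentile, ran from -0.53 to 0.48.

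Lgals3bp lies on chromosome 11 between 118392747 and 118401959 of GRCm38.p6. Over the 130 genes past the limit within 5 Mb on either side, the median log2 fold change was -0.046, and 4 were higher by more than 2-fold. The 6 nearest, within 200 kb, ranged from -0.22 to 0.074. The difference of Lgals3bp was thus not shared by the genes around it, and after subtraction of the neighbour median it was 1.70, where 2.63% of all genes were more than 2-fold higher.

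Lgals2, a prototype galectin with a single sugar-binding domain that is best known from the gut, had 6.09 FPKM in WT and 1.53 FPKM in the KO-labelled library. The WT value was 3.98 times the other, and the log2 fold change was -1.49. Only 181 genes had a lower log2 fold change. From the spacing of low values, 1 FPKM on a transcript of 1 kb corresponds to about 26.7 fragments in WT and 23.5 in the KO-labelled library. With the annotated Lgals2 transcripts of 796 to 818 bases, the values would rest on roughly 129 to 133 fragments in WT and 29 in the KO-labelled library. Large differences were more frequent at this level than for Lgals3bp, since 12 of the 200 genes nearest to Lgals2 in mean were more than 2-fold lower, or 6.0%. The Lgals2 call depended on the pseudocount, and with 5 in place of 1 its log2 fold change was -0.76.

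**Figure D2:**
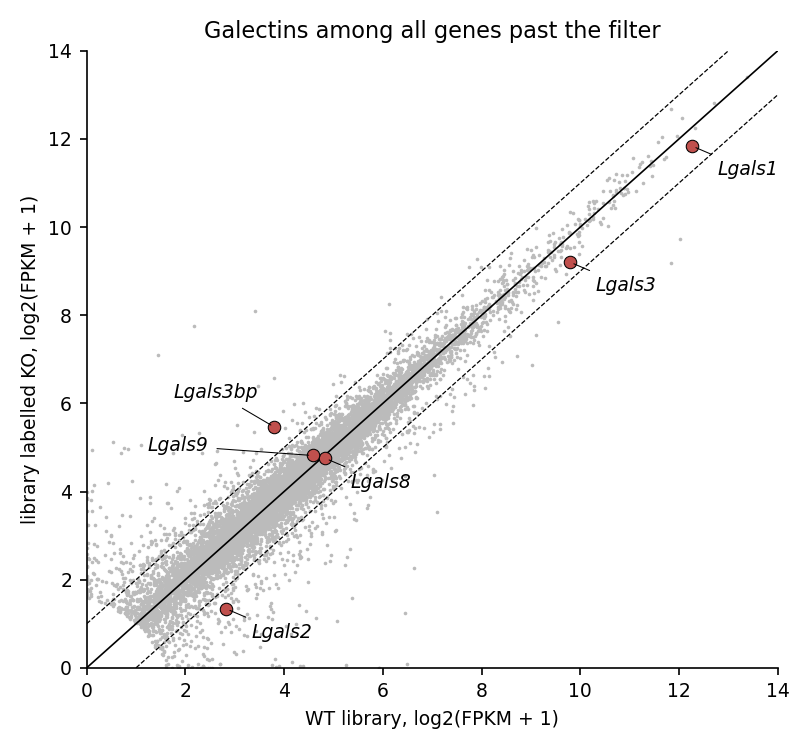
Each point is 1 of the 10542 genes whose mean reached 1 FPKM, placed by log2(FPKM + 1) in the WT library and in the KO-labelled library, with the 6 members in red. The solid line marks equal values and the dashed lines a 2-fold difference, beyond which only Lgals3bp (above) and Lgals2 (below) lie among the members.

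Lgals1, the prototype galectin that forms dimers and is among the most abundant transcripts of these cells, was at 0.744 times its WT value in the KO-labelled library. Its log2 fold change was -0.43, below the interquartile range of all genes, which ran from -0.21 to 0.23. Among the 200 genes nearest in mean, which at this height ran from 409 to 10752 FPKM, the central range was from -0.51 to 0.55, and Lgals1 lay inside it.

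Lgals1 and Lgals2 lie near each other on chromosome 15 of GRCm38.p6, 71.2 kb apart and with other genes between them. Lgals2 runs from 78850860 to 78855529 and Lgals1 from 78926725 to 78930465. The 154 other genes within 5 Mb of Lgals1 had a median log2 fold change of -0.40, so that the value of Lgals1 was close to that of its surroundings. After subtraction of this median, Lgals1 was at -0.030 and Lgals2 at -1.09. With the same subtraction 2.64% of all genes were more than 2-fold lower, and Lgals2 remained among them. Of the 11 other genes within 200 kb of Lgals1, 10 were lower in the KO-labelled library, and their median was -0.52. Lgals1 therefore did not stand out from a stretch of chromosome 15 in which most genes were lower. Lgals2 lay below the median of that stretch but was not its lowest gene. Of its 154 neighbours within 5 Mb, 11 were more than 2-fold lower, among them the nearby genes Pdxp and Cdc42ep1, and 6 had a lower log2 fold change than Lgals2.

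**Figure D3:**
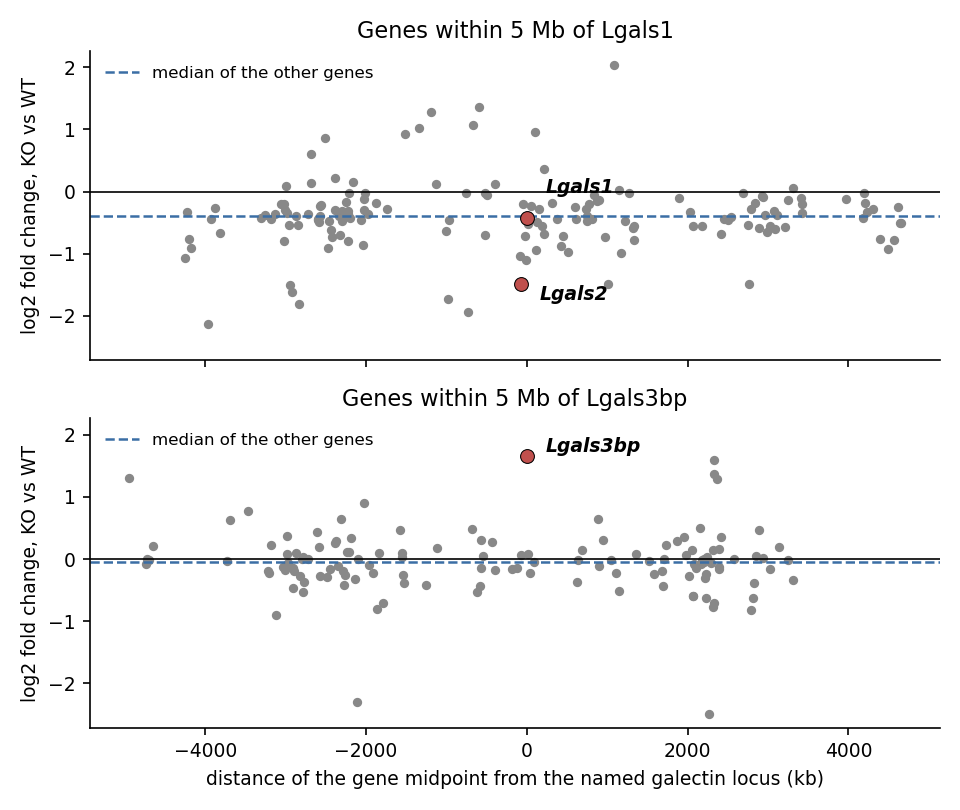
log2 fold change, KO against WT, of genes whose mean reached 1 FPKM, by distance in kb from Lgals1 (upper panel) and from Lgals3bp (lower panel). The dashed line is the median of the other genes, -0.40 around Lgals1 and -0.046 around Lgals3bp, and the named galectin genes are in red.

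Lgals3 was at 0.664 times its WT value in the KO-labelled library, with a log2 fold change of -0.59. Unlike Lgals1 it lay among genes without a common shift, and the 47 genes within 5 Mb on chromosome 14 had a median of -0.0057. Among the 200 genes nearest in mean, the 5th percentile was -0.51, and Lgals3 lay just below it. The ratio of Lgals3 to Lgals3bp was 68.3 in WT and 13.7 in the KO-labelled library. Because galectin-3 is widely used as a macrophage marker under the name Mac-2, macrophage genes were examined beside it. Of 8, Adgre1, Itgam and Ptprc were listed at 0 in both libraries, Csf1r had 0.054 and 0.078 FPKM, and only Cd14, at 19.6 and 18.4 FPKM, and Cd68, at 2.85 and 1.06 FPKM, had a mean of at least 1 FPKM. The summed level of the 8 was 22.7 FPKM in WT and 20.02 FPKM in the KO-labelled library.

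The tandem-repeat galectins Lgals8 and Lgals9, which hold a pair of different sugar-binding domains in 1 chain, had the smallest differences among the 6 genes. Lgals8, which recognises broken endosomes, had 27.5 FPKM in WT and 26.0 FPKM in the KO-labelled library, a log2 fold change of -0.082. Lgals9 had 22.9 and 27.2 FPKM, a log2 fold change of 0.24. Lgals8 lay above Lgals9 in WT and below it in the KO-labelled library, but with 1 library each no order of the pair can be drawn. Both log2 fold changes lay inside the central range of the 200 genes nearest in mean. Within 5 Mb, the genes around Lgals8 on chromosome 13 had a median of -0.015 and those around Lgals9 on chromosome 11 a median of -0.023.

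Related genes outside the 8 were few. Of Lgals12, Grifin and Lgalsl, the first 2 were listed at 0 in both libraries, and Lgalsl, a galectin-related protein that lacks sugar binding, had 1.95 FPKM in WT and 5.35 FPKM in the KO-labelled library, a log2 fold change of 1.10. Its mean of 3.65 FPKM was near that of Lgals2, and of the 200 genes nearest to Lgals2 in mean 6.5% were more than 2-fold higher. A processed pseudogene of Lgals1 on chromosome 17 and the Lgals4-like gene of some mouse strains, Lgals6, were not among the symbols, and reads shared with such copies could have been assigned to Lgals1 or Lgals4.

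The enzymes that build the sugar ligands were compared next, as 27 genes of glycan branching and N-acetyllactosamine synthesis. Of these, 19 had a mean of at least 1 FPKM, 0 were more than 2-fold higher and 1 was more than 2-fold lower, with a median log2 fold change of 0.00044. The lower gene was B4galt5, a galactosyltransferase that also makes lactosylceramide, at 50.4 and 19.7 FPKM. B4galt3, another galactosyltransferase, had 9.67 and 17.8 FPKM. Man2a1, the Golgi mannosidase that opens the way to branched N-glycans, had 33.8 and 58.2 FPKM. Mgat5, named here after its values were seen, is the branching enzyme whose products are preferred by galectin-3, and had 2.62 and 4.79 FPKM.

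Of 8 enzymes that cap galactose with sialic acid, 6 had a mean of at least 1 FPKM, of which 1 was more than 2-fold higher and 0 were lower, with a median of 0.42. The higher gene was St6gal1, whose product carries the linkage that blocks galectin-1 binding, at 1.84 FPKM in WT and 5.10 FPKM in the KO-labelled library. Its mean of 3.47 FPKM was near that of Lgals2, and of the 200 genes nearest to Lgals2 in mean 6.5% were more than 2-fold higher. The median of these enzymes was 0.17 after subtraction of the neighbour medians. These RNA values do not measure capping itself. By lectin staining, the study found less sialic acid on the KO cells than on WT cells.

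Of 22 glycoproteins known to bind galectins, 18 had a mean of at least 1 FPKM, and 14 of these had a positive log2 fold change, with a median of 0.29. One, Nrp1, was more than 2-fold higher, and 0 were more than 2-fold lower. Among all 10542 genes past the same limit, 5348 had a positive log2 fold change and 2.84% were more than 2-fold higher. After subtraction of the neighbour medians the list median was 0.25, and the neighbour median of Nrp1 was 0.33. Nrp1, a semaphorin and VEGF coreceptor bound by galectin-1, had 7.07 FPKM in WT and 22.03 FPKM in the KO-labelled library. Lamb1, a laminin chain, had 32.1 and 61.3 FPKM. Itga7, the laminin-binding integrin chain of muscle, had the lowest log2 fold change of the list, -0.72, with 47.4 FPKM in WT and 28.4 FPKM in the KO-labelled library. The summed level of the 22 was 1631 FPKM in WT and 2208 FPKM in the KO-labelled library, while that of the 7 galectins was 5861 and 4303 FPKM.

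Inside the cell, galectin-3, galectin-8 and galectin-9 mark damaged lysosomes and act with autophagy and mTORC1 regulators. Of 26 such partners, 23 had a mean of at least 1 FPKM, and their median log2 fold change was -0.088, with 7 above 0 and 16 below. Of all 10542 genes past this limit, 5348 were above 0. The single gene past 2-fold was Trim16, which joins galectin-3 to the autophagy machinery, at 20.6 FPKM in WT and 8.20 FPKM in the KO-labelled library. The transferrin receptor gene Tfrc had 86.2 and 62.3 FPKM. Lamtor4, a subunit of the Ragulator complex with which galectin-8 interacts, had 33.1 and 47.2 FPKM, and Prkaa2, a catalytic subunit of AMPK, had 1.19 and 1.80 FPKM.

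Lgals3bp and Lgals9 were also set beside 19 other interferon-stimulated genes present in the tables. Only 7 of these had a mean of at least 1 FPKM, 1 of which was more than 2-fold higher and 0 lower, and the median was -0.020. Isg15, the ubiquitin-like modifier, had 1.08 FPKM in WT and 5.30 FPKM in the KO-labelled library, at a low mean of 3.19 FPKM. Ifi35 and Irf9 were lower in the KO-labelled library, at 11.5 against 14.4 FPKM and 2.06 against 2.40 FPKM. Of the 7 genes, 3 had a positive and 4 a negative log2 fold change, so that their signs showed no common direction. The sizes were uneven, with a largest rise of 1.60 and a largest fall of -0.30. Below the limit, in genes named after their values were seen, Ifit1 had 0.064 and 1.48 FPKM and Ifit3 0.204 and 1.31 FPKM. The only genes lower there were Irf7, at 0.322 and 0.170 FPKM, and Psmb9, at 0.252 and 0.178 FPKM. A shared interferon response was not tested.

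**Figure D4:**
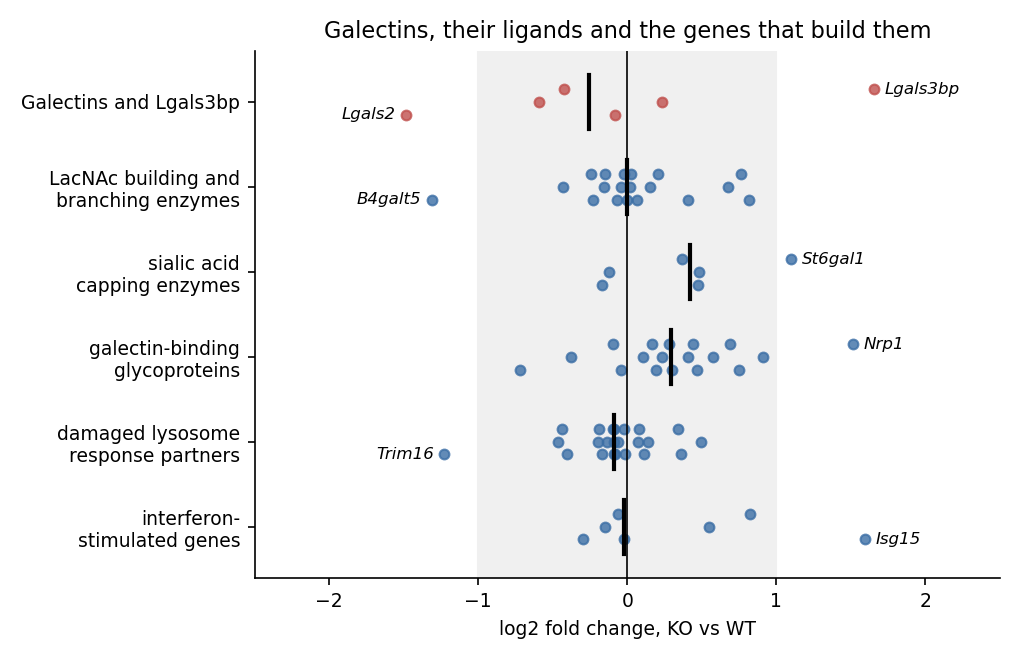
log2 fold change, KO against WT, of the members and of 5 gene lists, 1 point per gene whose mean reached 1 FPKM, with black bars at list medians and grey shading within 2-fold. The members have a median of -0.25, the glycoproteins of 0.29 and the building enzymes of 0.00044, and genes outside the shading are named.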

How the data were processed

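RNA of C2C12 cells was sequenced as 1 WT and 1 KO library. The deposited values, 1 per gene symbol, name no unit and were taken as FPKM computed by the authors, since their totals differ and TPM sums to a fixed total. TPM over part of the genes cannot be told apart from it. The submitters' notes name Trim Galore 0.6.6, STAR 2.7.9a and RSEM 1.3.3 with GRCm38, whereas the methods name GRCm39. RefSeq of GRCm38.p6 matched 21264 of 21829 symbols and gave positions. Labels and methods describe different library kits.

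Of repeated symbols (24 rows) the higher row was kept. The log2 fold change was computed on FPKM + 1, for genes whose mean reached 1 FPKM, and 2-fold means beyond 1 on this scale. Fragments per FPKM were estimated from the most frequent product of low values and transcript length, over single-transcript genes of 1000 to 4000 bases in GENCODE vM39. All 8 members were named, and of each list the genes past 2-fold and up to 2 with the largest difference either way, except for 1 gene that is not reported here. Members and lists were chosen with earlier results of these data known, and the 200 genes nearest in mean, the windows of 200 kb and the fragment estimate after the values were seen. The code was checked on values with planted differences and no added noise, which does not measure error in single libraries. Python 3.11.15, numpy 2.4.6, pandas 2.3.3 and matplotlib 3.10.9 were used.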

Additional observations from a re-analysis of the deposited data

How the results depend on the processing

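No paired analysis was possible because each line has 1 library, so that no replicate could be left out either. Depth is known only from the spacing of low values, where the ratio of KO to WT peaked at 1.13 among 383 low genes, and no counting interval is given. Values of single genes were taken as moved beyond 0.44, the interquartile range of all genes, list medians beyond 0.1 and counts beyond 1.5 times. Of 35 comparisons of single members, 33 stayed within this limit and 0 changed direction. The exceptions were Lgals2 at -1.92 with a pseudocount of 0.1 and -0.76 with 5. A change of the filter cannot alter the value of a single gene, so those comparisons were the same by construction. The limit was also wide, since Lgals1 counted as within it at -0.43 and at -0.030 after subtraction of the neighbour median.

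Over all genes, 299 higher and 362 lower were counted. A pseudocount of 5 gave 102 and 176, and the limit of 5 FPKM on the mean, which leaves fewer genes, gave 145 and 221. The count of members more than 2-fold lower was 0 in both, since Lgals2 left it by the pseudocount or by the filter. The member median of -0.25 was -0.12 without a filter, -0.082 with that limit and -0.049 after subtraction of neighbours. The sialic acid capping median of 0.42 was 0.18 and 0.17 without a filter and after that subtraction. Medians near 0 changed sign. That of the building enzymes was -0.012 with the median of ratios and -0.013 without a filter, and that of the interferon-stimulated genes was 0.016 without a filter and 0.015 after subtraction of neighbours. The myoblast marker median of -3.23 was -4.15 and -1.85 with pseudocounts of 0.1 and 5, -1.91 without a filter and -3.36 after subtraction. The fibroblast marker median of 2.57 was 2.68, 1.68, 0.55 and 2.43 in the same order. Other lists stayed within the limit, and medians were computed for lists of at least 3 genes.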

Other observations

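Genes around the Lgals1 and Lgals2 pair, chosen after their values were seen, did not all follow the lower values of that stretch of chromosome 15. Cdc42ep1, an effector of the small GTPase Cdc42 that lies beside Lgals2, had 65.6 FPKM in WT and 31.6 FPKM in the KO-labelled library. Pdxp, the pyridoxal phosphatase gene just before Lgals1, had 12.7 and 5.38 FPKM. H1f0, a linker histone gene 101 kb from Lgals1, went the other way, with 136 FPKM in WT and 264 FPKM in the KO-labelled library, a log2 fold change of 0.95.

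The genes whose levels in the libraries were most like those of Lgals3bp, by distance on the log2(FPKM + 1) scale over the 2 libraries, were Loxl1, C1s1 and Map1lc3a. Loxl1, a crosslinking enzyme of elastic fibres, had 15.2 FPKM in WT and 42.3 FPKM in the KO-labelled library. C1s1, a complement protease, had 16.8 and 48.3 FPKM. Map1lc3a, an LC3 gene of the autophagosome membrane, had 16.1 and 35.9 FPKM. Those most like Lgals1 were Fth1, Eef1a1 and Vim, at distances between 0.37 and 0.58, whose log2 fold changes were 0.092, -0.068 and -0.14 against -0.43 for Lgals1. With 2 libraries such a likeness covers a pair of values only.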
